A study of Mus musculus with 2 samples.

Results

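Ras GTPase-activating proteins (RasGAPs) bind Ras in its active, GTP-loaded state and speed the hydrolysis of GTP, which turns the Ras signal off. Neurofibromin, the product of Nf1, is the member lost in neurofibromatosis, and in the brain it restrains Ras in neurons, astrocytes and the oligodendrocyte lineage. Rasa1 brings GAP activity to phosphorylated receptor tyrosine kinases, Rasa2, Rasa3 and Rasal1 act at membranes through lipid-binding domains, and Rasal2 and Dab2ip are related GAPs known as tumour suppressors. These 7 genes, of 21951 annotated protein-coding genes, were examined for RNA bound by Prrc2a, a large proline-rich protein that the study examined as a reader of N6-methyladenosine (m6A).

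Prrc2a was immunoprecipitated with bound RNA (RIP-seq) from the whole brain of C57BL/6J mice that were wild type and 4 weeks old. There were 2 replicates and a single condition, with no treatment and no mutant animals. The protocol describes brains of 3 males, preclearing of the lysate with goat IgG, and trimming of bound RNA with micrococcal nuclease, and the labels do not say whether the replicates came from separate animals. The values are fold enrichments of peaks, linear ratios of the immunoprecipitate over a control that the methods do not name for this call. The read depth of either library is unknown, transcript abundance was not analysed here, and a lack of enrichment cannot be told apart from too few reads. A member peak overlapped an exon of any transcript of the gene by at least 1 bp, and a shared peak was a replicate 1 peak that also overlapped a replicate 2 peak by at least 1 bp. The genes were chosen with the peak lists known, so their counts are descriptions and no test was made.

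The lists held 18129 peaks in replicate 1 and 18671 in replicate 2, with median fold enrichments of 2.84 and 2.63, and 8372 replicate 1 peaks were shared. Of 20 markers of neurons, astrocytes, oligodendrocytes and microglia, 8 had an exonic peak in either replicate and 4 had a shared one. Over all protein-coding genes the shares were 24.0% and 12.0%. None of 6 liver and muscle markers had a peak, but these genes are shorter. Their median exonic lengths were 1186 bp (liver) and 2913 bp (muscle), against 3525.5 bp (microglia) to 6304.5 bp (neurons) for the brain markers. Of the 6 neuron markers 2 had a peak in either replicate (Map1b and Map2), and of the 5 astrocyte markers 2 (Slc1a2 and Aldh1l1). The others, among them Snap25, Rbfox3 and Gfap, which define neurons and astrocytes, had no peak. A missing peak was thus not taken as a measure of expression. Of 3 pituitary hormone genes, Gh and Prl each had 1 peak, in replicate 1 only, and Pomc had none.

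The exons of the 7 genes lay under 36 peaks of replicate 1 and 40 of replicate 2, of which 19 replicate 1 peaks were shared. Nf1 held 17 of the 19 shared peaks and Rasal2 the other two. Thus 2 of 7 members had a shared peak, against 12.0% of all protein-coding genes, 3 of 7 had a replicate 1 peak (16.5% of all genes), and 5 of 7 a replicate 2 peak (21%). In either replicate 5 members had a peak, against 24.0% of all genes, and Rasa2 and Rasa3 had none over an exon. These shares were not matched for exonic length. By that length Rasa2, Nf1 and Rasal2 ranked 340th, 341st and 579th of 21951 genes, Dab2ip 2535th, Rasa1 3450th, Rasa3 6863rd and Rasal1 10840th. Of the members' replicate 1 peaks 52.8% were shared, beside 61.3% of all replicate 1 peaks in protein-coding exons, and of their replicate 2 peaks 45.0%, beside 47.9%. For Nf1 alone the shares were 60.7% and 54.8%.

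**Figure D1:**
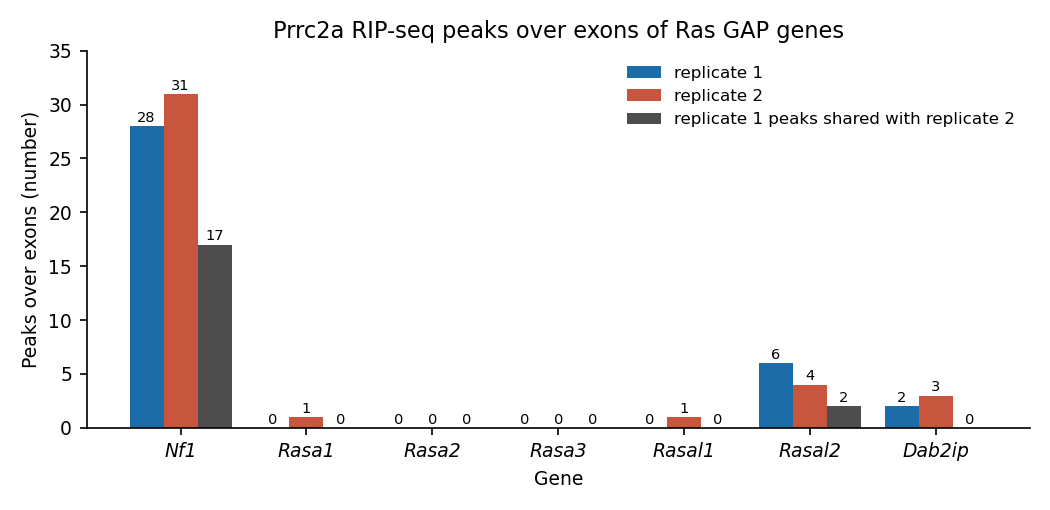
Number of peaks over exons of each of the 7 RasGAP genes (vertical axis, count), with bars for replicate 1, replicate 2 and the replicate 1 peaks shared with replicate 2. Nf1 stands at 28, 31 and 17, Rasal2 at 6, 4 and 2, and the 5 other genes have no shared peak.

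The sequences that follow carry the results on Nf1 and Rasal2. They were read from GRCm38 (mm10), are coding and are printed in the direction of the mRNA, with GGAC, the core of the m6A consensus, in capitals. The first group holds the coding bases of the 3 shared Nf1 peaks with the highest mean fold enrichment, limited to 300 bases around the middle: exon 21 at chr11:79443839-79444138, exon 37 at chr11:79535669-79535968 and exon 27 at chr11:79448125-79448336.
Nf1 exon 21: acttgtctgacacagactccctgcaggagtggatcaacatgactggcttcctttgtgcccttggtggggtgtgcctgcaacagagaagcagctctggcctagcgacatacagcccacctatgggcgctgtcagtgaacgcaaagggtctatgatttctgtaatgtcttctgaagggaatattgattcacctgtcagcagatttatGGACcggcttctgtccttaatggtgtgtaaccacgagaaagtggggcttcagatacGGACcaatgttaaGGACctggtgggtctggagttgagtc
Nf1 exon 37: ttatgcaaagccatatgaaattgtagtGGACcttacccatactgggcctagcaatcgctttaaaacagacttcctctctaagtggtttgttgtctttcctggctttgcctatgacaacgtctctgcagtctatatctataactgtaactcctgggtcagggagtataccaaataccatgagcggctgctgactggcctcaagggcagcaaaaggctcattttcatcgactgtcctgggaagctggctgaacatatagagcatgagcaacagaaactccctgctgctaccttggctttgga
Nf1 exon 27: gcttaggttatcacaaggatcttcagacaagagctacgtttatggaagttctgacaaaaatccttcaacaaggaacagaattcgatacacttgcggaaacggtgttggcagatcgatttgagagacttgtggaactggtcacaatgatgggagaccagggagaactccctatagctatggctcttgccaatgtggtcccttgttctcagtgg
The stretch of exon 21 holds GGAC at 3 places and that of exon 37 at 1, and exon 27, the most enriched Nf1 exon in replicate 2, holds none.

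The second group shows an alternative exon of Nf1 that was under a peak in replicate 1 only (exon 31, chr11:79463233-79463295) and the next exon, under a peak in replicate 2 only, which encodes a conserved motif of the catalytic domain (exon 32, chr11:79468717-79468875). Neither holds GGAC.
Nf1 exon 31: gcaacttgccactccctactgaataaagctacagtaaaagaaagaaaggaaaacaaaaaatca
Nf1 exon 32: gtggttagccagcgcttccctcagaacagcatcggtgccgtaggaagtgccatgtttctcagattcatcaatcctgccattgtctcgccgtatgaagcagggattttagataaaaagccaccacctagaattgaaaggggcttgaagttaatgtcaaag
The third gives the coding part of Rasal2 exon 1, from the start codon on, on the minus strand (chr1:157411737-157411938), where both replicates had a peak.
Rasal2 exon 1: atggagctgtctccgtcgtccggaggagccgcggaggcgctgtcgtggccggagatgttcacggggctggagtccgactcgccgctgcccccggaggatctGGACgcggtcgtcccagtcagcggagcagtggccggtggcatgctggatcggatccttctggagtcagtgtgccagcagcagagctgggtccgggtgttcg
It holds GGAC once.

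Nf1 (ENSMUSG00000020716.16, plus strand, chr11:79339693-79581612) spans 241920 bp, of which 15850 bp (6.55%) are exonic. It had 28 peaks in replicate 1 and 31 in replicate 2, and 17 were shared, 60.7% of the first and 54.8% of the second. With 17 shared peaks it ranked 11th among protein-coding genes, level with Grin2a and Macf1, while genes with any shared peak had a median of 2 and only 76 genes had 10 or more. Its exonic length ranked 341st, and per kb of exon it had 1.07 shared peaks (rank 116), against a median of 0.325 among genes with a shared peak. Rasa2 is as long in exons (15856 bp) and had no exonic peak in either replicate.

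None of the peaks in the Nf1 locus lay in an intron alone: all 28 and all 31 peaks within the gene span touched an exon. Over all protein-coding genes this held for 74.6% of replicate 1 peaks and 92.6% of replicate 2 peaks. The single largest intron, between exons 36 and 37, contains 3 genes on the opposite strand: Omg (chr11:79500982-79504084), which encodes the oligodendrocyte-myelin glycoprotein, and the membrane protein genes Evi2a and Evi2b. These 3 genes had no peak in either replicate.

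The shared peaks of Nf1 lay mainly over its coding sequence. On ENSMUST00000071325.8, the Nf1 transcript with the longest coding sequence (58 exons, 8526 nt of CDS, 3216 nt of 3′ UTR), 13 of the 17 peak midpoints fell in the CDS (76.5%), 2 in the 3′ UTR (11.8%), 1 in the 5′ UTR and 1 in an intron. Among all shared peaks in protein-coding exons 50.9% had the midpoint in the CDS, 30.3% in the 3′ UTR and 11.4% in the 5′ UTR. Per kb Nf1 had 1.52 shared peaks in the CDS and 0.622 in the 3′ UTR. The share of CDS depends on the midpoint rule, since by the region with the most bases 9 of the 17 peaks were intronic and 5 were in the CDS (29.4%), compared with 13.7% intronic and 41.4% CDS for all shared peaks in protein-coding exons.

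Peaks of replicate 1 covered 52.6% of the CDS bases of Nf1 and those of replicate 2 58.0%. Both replicates together covered 37.8% of these bases, and either one covered 72.8%. In the 3′ UTR the shares were 31.3% and 27.6%, with 14.7% under both, and the short 5′ UTR was covered in full in each replicate.

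**Figure D2:**
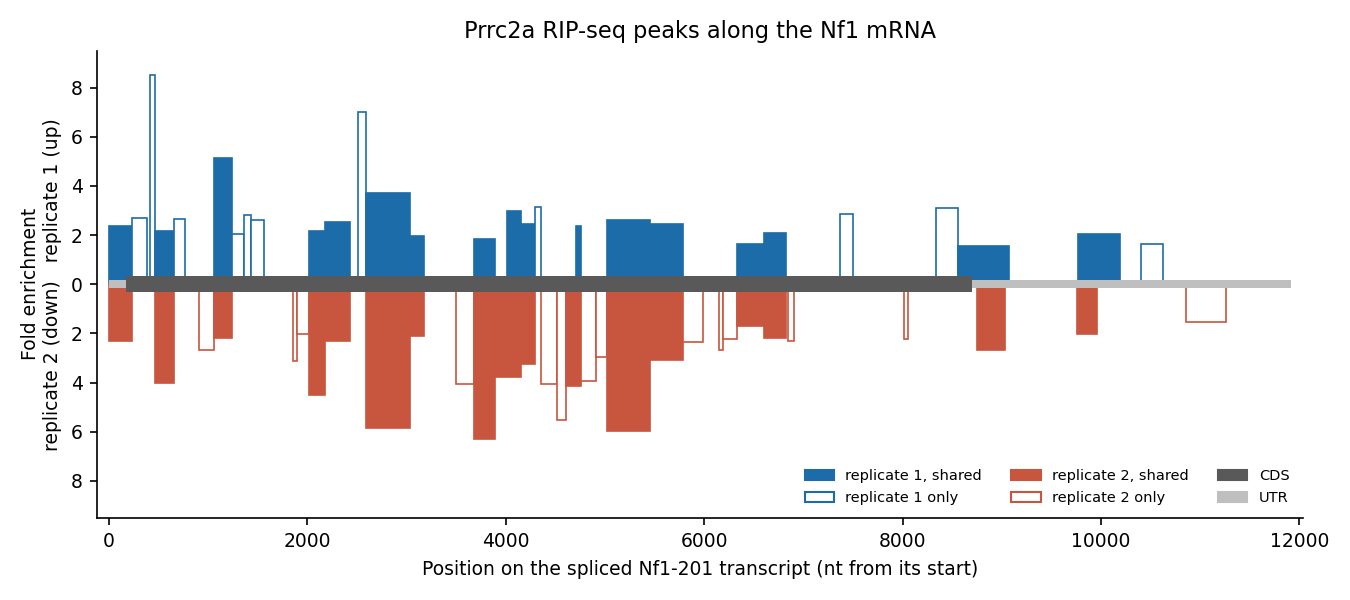
Peaks along the spliced Nf1 transcript with the longest coding sequence (horizontal axis, nt from its start), with the fold enrichment of replicate 1 upwards and of replicate 2 downwards. Filled boxes are shared peaks and open boxes peaks of 1 replicate, drawn over the exonic bases they cover, and the bar marks CDS (dark) and UTR (light). Shared peaks fill much of the CDS up to exon 43, after which the remaining coding exons hold only open boxes until the last exon.

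Exon by exon, 41 of the 58 exons were under a peak of either replicate. Of these, 17 were under peaks of both, 10 of replicate 1 only and 14 of replicate 2 only. In every one of the 17, the peaks of the replicates overlapped each other. The exons under a replicate 1 peak alone lay mostly upstream (7 of 10 among exons 1 to 29, median exon 11.5) and those under a replicate 2 peak alone mostly downstream (10 of 14 among exons 30 to 58, median exon 35.5). Exons under both were spread over the transcript, 10 upstream and 7 downstream. Exons 44 to 57, a run of 14 exons and 1735 nt (chr11:79548474-79570447), held no shared peak and only 2 peaks of each replicate.

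Exons with peaks in both replicates were longer than those without a peak. Among internal exons of Nf1 the 15 under peaks of both had a median length of 191 nt and the 17 without any peak a median of 117 nt. The 4 longest internal exons, exon 21 (441 nt), exon 37 (433 nt), exon 38 (341 nt) and exon 42 (280 nt), were all under shared peaks. The same order is found elsewhere: among genes with 5 or more shared peaks the medians were 213 and 121 nt, and exons under both were the longer ones in 189 of 194 genes with enough exons of each kind (97.4%). The pattern is therefore not particular to Nf1.

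The peaks followed single exons and ran past their ends. Of the 17 shared peaks 16 covered 1 exon and 1 covered exons 28 and 29. A median of 48.9% of the bases of a shared Nf1 peak was exonic (range 22.8 to 100), against a median of 100% among all shared peaks in protein-coding exons, although the median widths were alike (465 and 469 bp). Of 13 shared peaks over a single coding exon, 12 extended past both ends of the exon, by a median of 101 bp upstream and 120 bp downstream. When at least 50% of a peak had to be exonic, 8 shared peaks of Nf1 remained. The lists give no strand and no splicing information, and the origin of the flanks was not tested.

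The most enriched shared peak of Nf1 by the mean of both replicates lay over exon 21 (chr11:79443672-79444298), with fold enrichments of 3.71 in replicate 1 and 5.86 in replicate 2. The peak over exon 37 (chr11:79535554-79536122) had 2.62 and 5.97. The peak over exon 27 (chr11:79448019-79448468) had 1.84 and 6.29, the highest value of Nf1 in replicate 2 and among its lowest in replicate 1. The order of these exons therefore depended on the replicate. Exon 9, the highest shared peak in replicate 1, had 5.14 there and 2.17 in replicate 2. The peak over exons 28 and 29 had 2.98 and 3.76, and that over exon 17 had 2.17 and 4.48. Exon 34, whose replicate 1 peak held only 47 exonic bases, had 2.35 and 4.15. In the last 3 the value was higher in replicate 2.

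Some peaks had near-equal values instead. Exon 1, with the start codon, had 2.38 and 2.32, exon 43 had 2.10 and 2.18, and exon 22 had 1.95 and 2.10. The lowest shared peak, over exon 42, had 1.62 and 1.70. The 2 peaks in the last exon, exon 58, had 1.54 and 2.66 near the stop codon and 2.04 and 2.03 further into the 3′ UTR. These are the only shared peaks with midpoints in the 3′ UTR, and both were below the median of the shared peaks in each replicate. The remaining shared peaks, over exons 4, 18, 30 and 38, ranged from 2.15 to 2.55 in replicate 1 and from 2.31 to 4.02 in replicate 2.

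Over the 17 pairs, 13 were higher in replicate 2 and 4 in replicate 1. The median log2 ratio of replicate 1 over replicate 2 was -0.34 (SD 0.67 over the pairs, range -1.78 to 1.25), beside -0.28 (SD 0.51) for all shared peaks in protein-coding exons, so shared peaks were lower in replicate 1 in general, although the median over all peaks of a list was higher there. The median fold enrichments of the pairs were 2.35 and 3.08, close to the 2.27 and 2.83 of all. In 4 of 17 pairs the replicates differed by more than 2-fold, compared with 7.80% of all shared peaks. No pair reached 4 in both replicates. That limit lies above both medians of all shared peaks, and the share of all shared peaks that reached it is not given here. Across the 17 pairs, which share a gene and both libraries, Spearman's rho was 0.275, given as a description. The shared peaks of Nf1 were thus many, while their median fold enrichments were close to those of all shared peaks. Single values ranged widely. In replicate 2 the shared peak over exon 42 lay above 8.94% of the list and that over exon 27 above 97.1%.

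**Figure D3:**
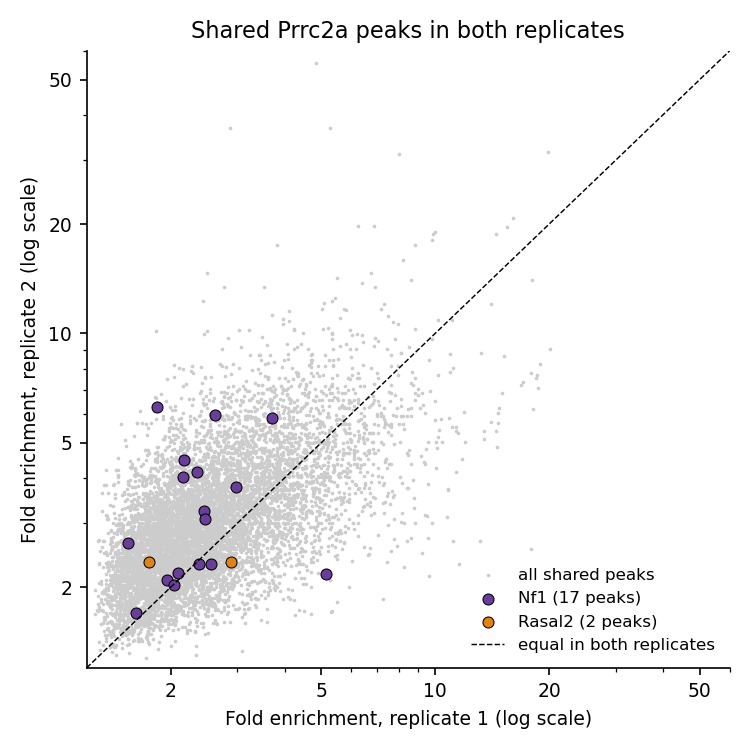
Fold enrichment of each shared peak in replicate 1 (horizontal axis, log scale) and in its overlapping replicate 2 peak (vertical axis, log scale), with all shared peaks in grey, the 17 of Nf1 in purple and the 2 of Rasal2 in orange. The dashed line marks equal values, and 13 of the 17 Nf1 peaks lie above it within the cloud of all shared peaks.

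The highest values of Nf1 in replicate 1 were not shared. The peak over exon 3 (chr11:79386693-79386911) had a fold enrichment of 8.50 and that over exon 20 (chr11:79441706-79442123) had 7.02, and replicate 2 had no peak over either exon. Replicate 2 in turn had unshared peaks of 5.52 over exon 33 and of 4.07 over exons 26 and 32. By the region with the most bases, each of these unshared peaks of either replicate was intronic. The midpoint of the exon 3 peak also lay in an intron, and those of the others lay in the CDS. Over all its exonic peaks, Nf1 had a median of 2.51 in replicate 1 and 2.69 in replicate 2.

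Exons 31 and 32 both belong to the part of Nf1 that encodes the GAP-related domain. Exon 31, 63 nt long, is skipped in another annotated coding transcript, and its inclusion is known to lower the GAP activity of neurofibromin. Replicate 1 had a peak over it (chr11:79463080-79463421) with a fold enrichment of 3.14, a value found at 23 peaks of that list, and replicate 2 had none. The flanking exon 30 was under a shared peak (2.44 and 3.25), and exon 32 under a replicate 2 peak only. The lists do not tell which isoform was bound.

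Exon 32 encodes a conserved stretch of the RasGAP catalytic domain (chr11:79468771-79468794). The motif was searched in the translated coding sequences of the members and was found in 6 of 7. No member had a replicate 1 peak over it. Replicate 2 had a peak over it in Nf1 (4.07) and in Rasal2 (exon 11, chr1:157163813-157163836, fold enrichment 2.01). Rasa1, Rasa3, Rasal1 and Dab2ip had no peak there, and in Rasa2 this form of the motif was not found.

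GGAC occurred in the exonic bases of 12 of the 17 shared Nf1 peaks (70.6%) and of 14 of the 19 shared peaks of all members (73.7%), on the strand of the gene. Among all shared peaks in protein-coding exons 77.8% held it. The longer GGACT, which contains GGAC, was found in 3 of 17 (17.6%), against 42.9% of all. The shared peaks of Nf1 also held fewer exonic bases (median 215, against 376) and had a lower GC content (median 45.7%, against 53.4%), and the part of these in the motif shares was not tested. Of 32 GGAC within single coding exons of Nf1, 14 were under peaks of both replicates and 23 under a peak of either. Of all CDS bases of Nf1, 37.8% were under peaks of both and 72.8% under a peak of either, and no difference was tested. The shared peaks without GGAC include those over exons 17, 18, 27, 30 and 34, and the peaks over the last exon held the most, 5 and 6.

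Rasal2 (ENSMUSG00000070565.11, minus strand, chr1:157135182-157412595), a GAP that acts as a tumour suppressor, was the other member with shared peaks. Its exonic length of 13740 bp is near that of Nf1, yet it had 6 peaks in replicate 1 and 4 in replicate 2. Both shared peaks lay over exon 1. The one over the start of the CDS (chr1:157411644-157412066) had a fold enrichment of 1.75 and the one in the 5′ UTR (chr1:157412236-157412551) had 2.90, and a single wide peak of replicate 2 (chr1:157411649-157412507, 2.35) overlapped both. Replicate 1 thus split a stretch that replicate 2 joined, and the 2 shared peaks count as 1 when the replicate 2 list is counted. When an overlap of 50% of both peaks is required, neither is shared. The 5′ UTR peak also overlapped an exon of 2810025M15Rik, a transcribed pseudogene on the opposite strand, and without strand the 2 genes cannot be told apart there.

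The other peaks of Rasal2 differed between the replicates. In replicate 1 they lay over exon 2 (1.90), exon 14 (1.67) and exon 18 (2.00 over the end of the CDS and 1.79 in the 3′ UTR). In replicate 2 they lay over exon 11 (2.01), exon 12 (2.75) and the distal 3′ UTR in exon 18 (2.25). No value of Rasal2 reached the 3.71 and 5.86 of Nf1 exon 21.

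Dab2ip (ENSMUSG00000026883.17, plus strand, chr2:35558266-35730994), a GAP and signalling scaffold with a known role in neuronal migration, had 2 peaks in replicate 1 and 3 in replicate 2, none of them shared. Those of replicate 1 (chr2:35558104-35558389, 5.24, and chr2:35558525-35558747, 2.92) lay at the start of the gene, over exonic bases of a single annotated transcript, outside the transcript with the longest coding sequence. Both also overlapped Gm13446, a non-coding transcript on the opposite strand, and the midpoint of each fell on it. Those of replicate 2 lay at the other end of the gene, over exon 12 (chr2:35720008-35720487, 1.81) and the 3′ UTR in exon 16 (2.26 and 1.72). The replicates thus had peaks at separate ends of the gene. Without strand, those of replicate 1 cannot be assigned to Dab2ip rather than to Gm13446.

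Rasa1 (ENSMUSG00000021549.14, minus strand, chr13:85214780-85289130) had 1 peak, in replicate 2, over coding bases of exon 1 (chr13:85288545-85288747, 1.62). Rasal1 (ENSMUSG00000029602.11, plus strand, chr5:120648812-120679597), a GAP that responds to calcium, also had 1 in replicate 2, over exon 1 (chr5:120649304-120649606), with 1.38, the lowest value of any member peak. Only 0.696% of the replicate 2 peaks were lower. Rasa2 (ENSMUSG00000032413.12, minus strand, chr9:96539300-96631617) had no peak within its span. Rasa3 (ENSMUSG00000031453.16, minus strand, chr8:13566948-13677603) had no exonic peak, and a replicate 2 peak in an intron (chr8:13673505-13673989, 3.58) lies outside the definition of a member peak.

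**Figure D4:**
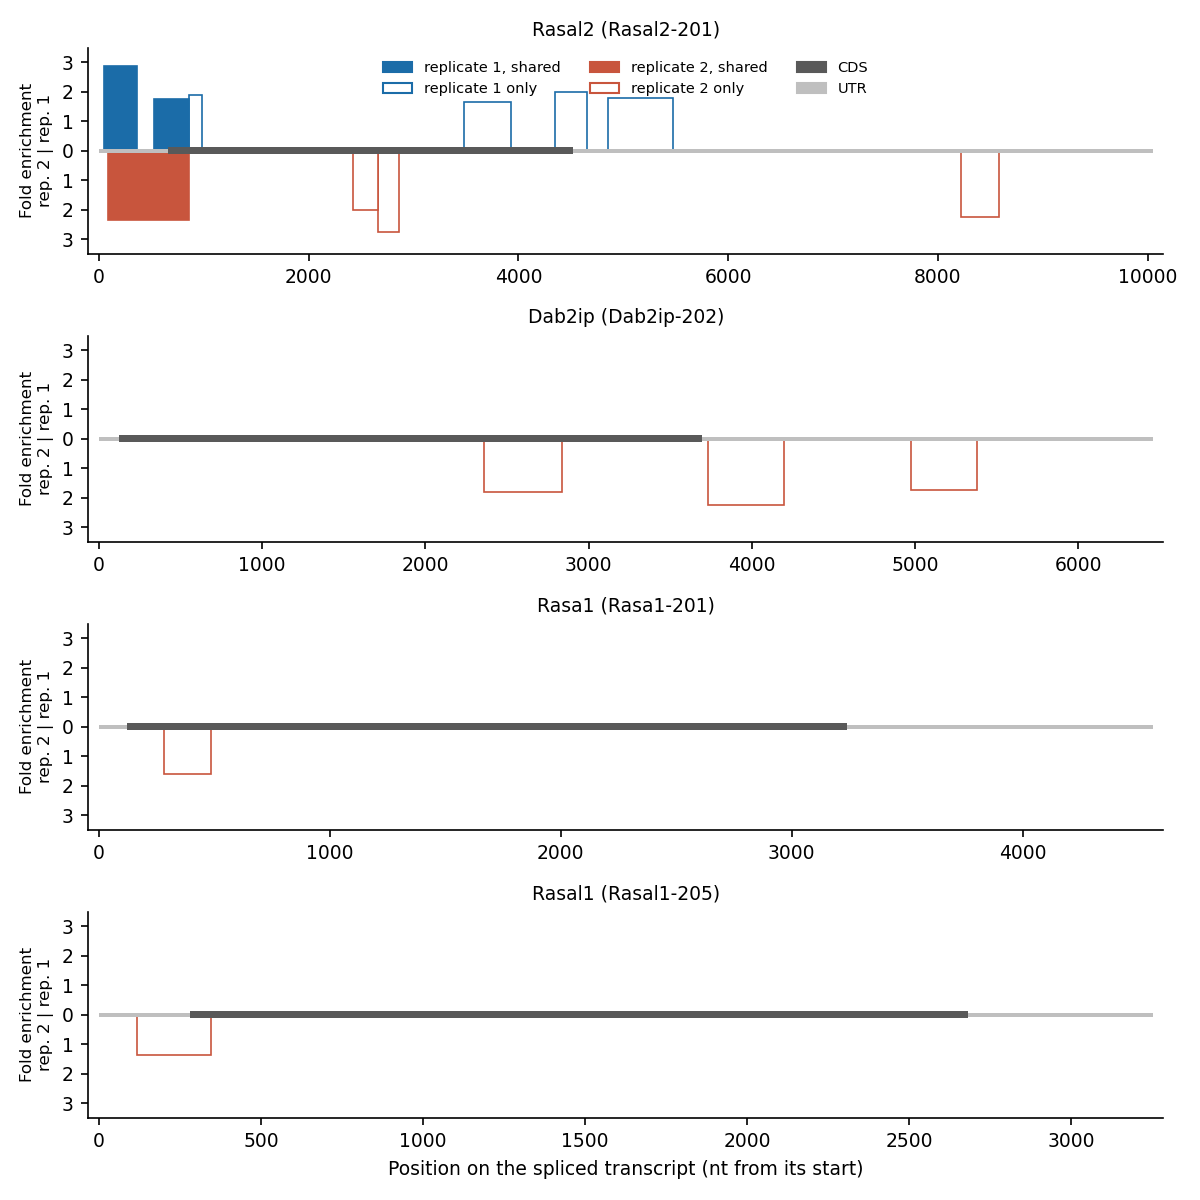
Peaks along the spliced transcript with the longest coding sequence of Rasal2, Dab2ip, Rasa1 and Rasal1 (horizontal axes, nt from the start), with the fold enrichment of replicate 1 upwards and of replicate 2 downwards, and CDS (dark) and UTR (light) on the bar. Filled boxes, which are shared peaks, occur only at the start of Rasal2, and the 2 replicate 1 peaks of Dab2ip are not drawn because they lie off this transcript.

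All 5 members with an exonic peak had a peak over a first exon of one of their transcripts, a feature noticed in the data, beside 60.5% of protein-coding genes with an exonic peak. Only in Nf1 and Rasal2 was it shared, and 57.8% of protein-coding genes with a shared peak had one over a first exon. The Dab2ip peaks also overlapped Gm13446, and those of Rasa1 (1.62) and Rasal1 (1.38) were low and in replicate 2 only. The GC contents of the exonic bases of these peaks were 77.9% in Nf1 exon 1, 72.4% and 77.5% in the shared peaks of Rasal2, 73.9% in Rasa1, 64.5% in Rasal1, and 60.5% and 68.2% in the replicate 1 peaks of Dab2ip. Shared peaks in protein-coding exons of any position had a median of 53.4%, and first-exon peaks of other genes were not measured apart. For Rasa1 and Rasal1 the first-exon peak was the only one. At the limits of the definitions, the smallest overlap of a shared pair among the members was 190 bp, the smallest gap between an unshared replicate 1 peak and a replicate 2 peak was 188 bp, and the fewest exonic bases in a member peak were 31.

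The genes around the RasGAPs in the Ras pathway were examined with lists of 55 annotated genes. Of these, 18 (32.7%) had a shared peak and 34 a peak in either replicate, beside 12.0% and 24.0% of all protein-coding genes. Among partners of neurofibromin and feedback inhibitors 6 of 8 had a shared peak: Spred1, which recruits neurofibromin to the membrane, had 1, its relative Spred2 had 3, the Sprouty genes Spry1, Spry2 and Spry4 had 1, 3 and 4, and the MAP kinase phosphatase gene Dusp6 had 1. Spred3 and Lztr1 had none. The best of these peaks, in the 3′ UTR of Spry4, had fold enrichments of 4.01 and 4.18.

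None of the 6 Ras GTPase genes had a shared peak, beside the 12.0% of all protein-coding genes that had one, and 2 of the 6 had peaks in replicate 2 only: Nras with 2 and Rras2 with 1. Of 10 genes for effector kinases and scaffolds, 2 had one, both for scaffolds that assemble the kinase cascade below Ras: Ksr1 with 4 and Ksr2 with 11, the highest count after Nf1 among these genes. The best Ksr2 peak, in the 3′ UTR (chr5:117765554-117769507), had 4.29 and 7.81. Araf, Map2k1, Map2k2, Mapk3 and Shoc2 had no peak at all, and Braf had 1 in replicate 2.

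Of the 8 exchange factors that load Ras with GTP, Sos1 and Rasgrf1 had 3 shared peaks each. Of 9 receptor adaptors, Shc3 had 3 and Cbl, a ubiquitin ligase, had 5. Among other genes with a RasGAP domain, Iqgap2 had 1 (2.59 and 2.18). The list of GAPs for Rap and Rheb held 8 genes and included Tsc1 as the partner of the GAP Tsc2. Of these genes 4 had shared peaks: Sipa1l1 with 3, Sipa1l2 with 3, Sipa1l3 with 4 and Tsc1 with 2. Tsc2 itself had none. The lists are short and were chosen with the peak lists known, and no share was tested against the 12.0% of all genes. The lists were also not matched to all genes for exonic length.

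**Figure D5:**
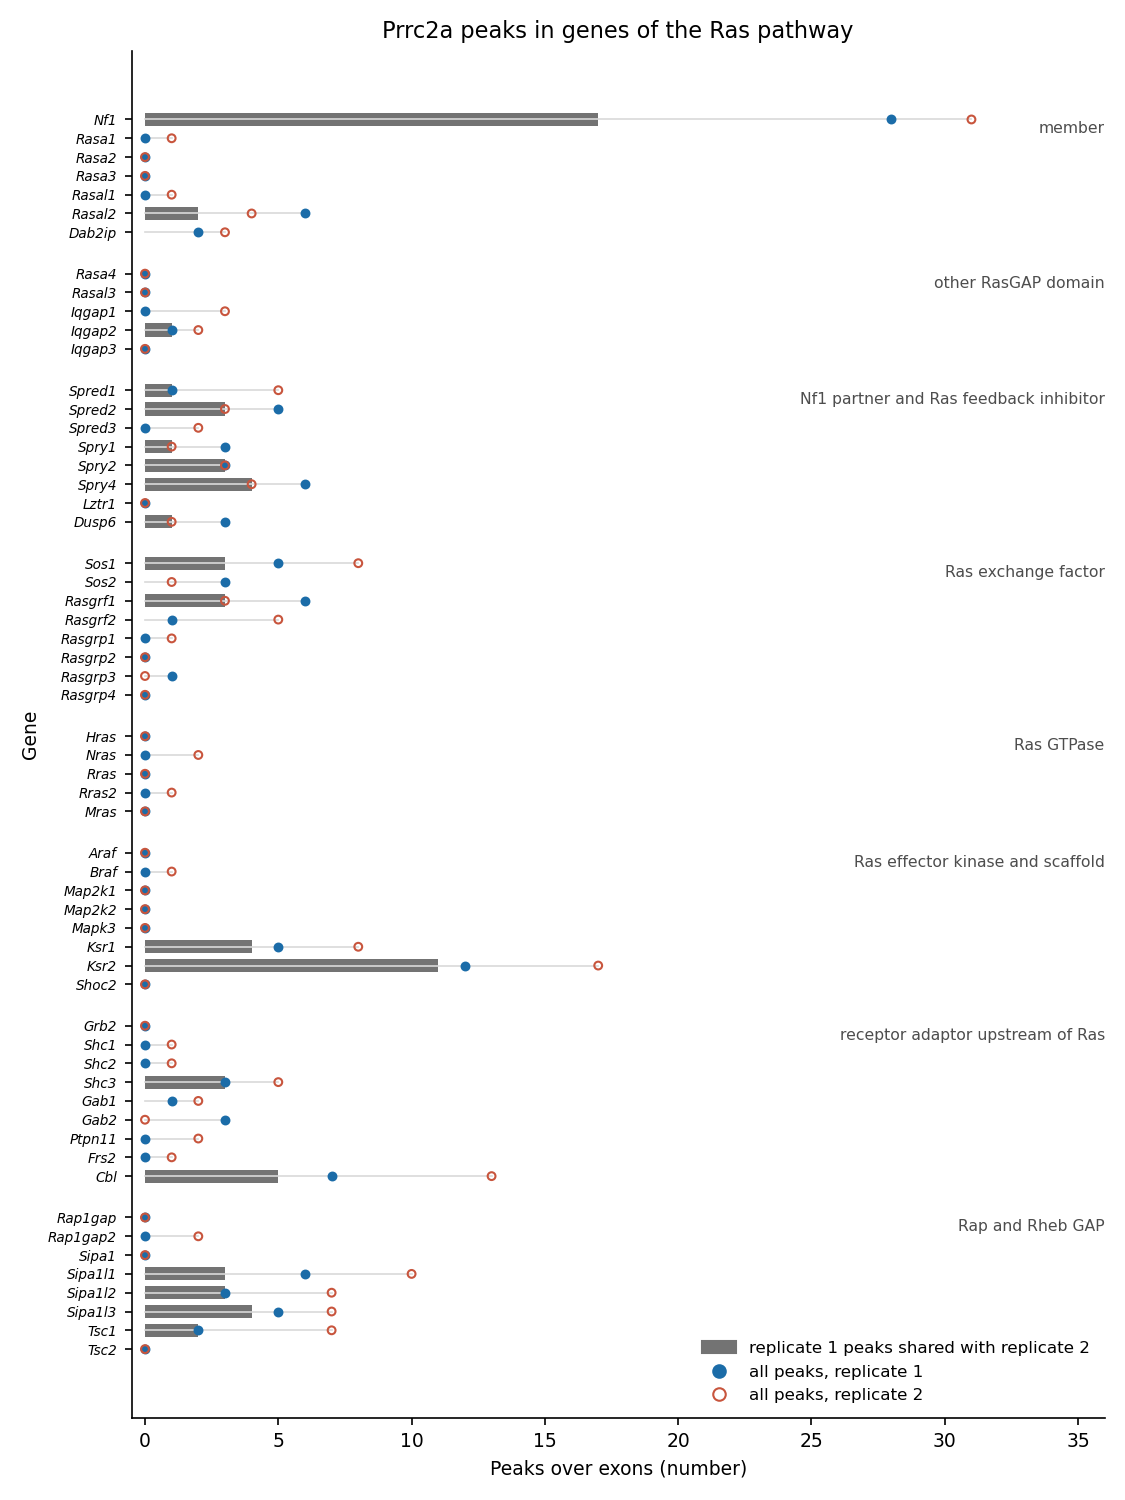
Number of peaks over exons of the 7 RasGAP genes and of genes of the Ras pathway lists, a few of which are not drawn (horizontal axis, count), grouped by role, with bars for shared peaks, filled points for all replicate 1 peaks and open points for all replicate 2 peaks. Nf1 (17) and Ksr2 (11) have the most shared peaks, and the Ras GTPase genes drawn have none.

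The genes most like Nf1 were sought among the 442 protein-coding genes with at least 5 shared peaks, by the distance over 3 standardised measures: the number of shared peaks, their number per exonic kb (both on the log2 scale) and the percent with the midpoint in the CDS. The nearest was Csmd2 (distance 0.328), with 19 shared peaks, 1.11 per kb and 73.7% in the CDS. Kcnh7, a potassium channel gene, followed with 15 (distance 0.403), then Crebbp, a histone acetyltransferase gene, with 16 (0.405), Med13l, a Mediator subunit gene, with 15 (0.422), and Notch1 with 18 (0.427). Their exonic lengths ran from 13540 bp in Crebbp to 17077 bp in Csmd2, near the 15850 bp of Nf1. This likeness in length follows from the choice, because the count and the count per kb together fix the length.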

How the data were processed

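The deposited lists give, per the file headers, the chromosome, start, end and enrichment of each peak, and the enrichment is a linear ratio (fold enrichment). To make them, the authors trimmed reads, aligned them to mm10 with TopHat, filtered on mapping quality and called each replicate with MACS2 under an FDR limit. The submitters' processing notes name TopHat2 2.0.9 and MACS2 2.0.10, and the methods name other versions. Starts and ends were taken as counted from 1, since the narrowest peaks then span 200 bp. The number of reads is not in the files, so the depth and its precision are unknown.

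Peaks were joined to exons of GENCODE M21 by at least 1 bp. Bases were read from GRCm38 with pysam 0.24.0 and samtools 1.23.1, under Python 3.11.15, numpy 2.4.6, scipy 1.17.1 and matplotlib 3.10.9. A region was the annotation at the midpoint, with CDS before UTRs, non-coding exons and introns. The partner of a shared peak was the overlapping replicate 2 peak with the largest fold enrichment. GGAC was counted in exonic bases on the strand of the gene, and promoters were not examined. Simulated peaks planted in 200 genes were used to check the scripts, and 6 of 6 quantities were recovered.

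The members, the pathway and marker lists and the measures were chosen with earlier results of these data known. Named were all members, genes within the Nf1 span, list genes with a shared peak and the 5 genes nearest to Nf1. Other list genes named (those with no shared peak), Grin2a, Macf1 and the genes overlapping member peaks were chosen after their values were seen. A few genes of the lists are counted but not reported by name here. With 1 condition and members chosen from the lists, no test was made. Alternatives changed the overlap rule, the fold enrichment threshold, the exon rule, the annotation, the motif and the replicate counted.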

Additional observations from a re-analysis of the deposited data

How the results depend on the processing

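The 19 shared peaks of the members, and the 17 of Nf1, became 0 and 0 when only pairs of peaks enriched 4-fold or more in each replicate counted, and 10 and 8 when at least 50% of a peak had to be exonic. How many of all shared peaks pass the 4-fold limit is not given here, so the 0 is not a trait of these genes. With 1 replicate left out, the peaks of the other numbered 36 to 40 for the members and 28 to 31 for Nf1. The 2 members with a shared peak became 1 (Nf1) with an overlap of 50% of both peaks, 0 at a fold enrichment of 4, and 3 to 5 with 1 replicate left out. The share of member replicate 1 peaks that were shared moved from 52.8% to 38.9% with the 50% overlap, to 71.4% for peaks at least 50% exonic, and was 45.0% for replicate 2 peaks. The share of Nf1 shared peaks in the CDS moved from 76.5% to 29.4% by the region with the most bases, and was 67.7% to 78.6% for all peaks of a single replicate. The share with GGAC moved from 73.7% to 63.2% within 100 bases of the midpoint, 84.2% on either strand and 15.8% for GGACT, and was 52.8% to 60.0% for all peaks of a single replicate, an alternative chosen after seeing the data. The median log2 ratio of the 19 pairs moved from -0.34 to -0.071 after subtracting the median of all shared peaks and to -0.33 with the 50% overlap. The 18 pathway genes with a shared peak became 23 to 32 genes with a peak when 1 replicate was left out. The other alternatives moved these values by at most 1.5 times for counts (18 to 12 pathway genes when both peaks had to be enriched at least 2-fold), or by less than the spread between replicates. Shared shares and log2 ratios need both replicates, so neither could be left out there. No paired analysis was possible because both replicates belong to 1 condition. With 2 replicates and unknown depth, a gene without a peak may still be bound.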
